A study of Mus musculus with 5 samples.

Results

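Ectoderm-only regions in gene deserts are stretches of accessible chromatin that were called in every library of limb ectoderm, were not called in forebrain, and lay far from protein-coding genes. Overlapping peaks of the 5 deposited lists on chromosomes 1 to 19 and X were joined wherever they shared 1 bp, which gave 231437 regions. Of these, 5379 had a peak in all 4 ectoderm lists and none in the forebrain list, or 2.32% of all regions. The midpoint of 1085 of them lay outside, and more than 100 kb from, any protein-coding gene of the mm10 annotation. They were 2.23% of the 48738 regions of any kind that lay as far from genes. The 1085 regions were thus chosen by presence or absence of a peak in the 5 lists and by distance from genes, and both are given as a description and were not tested.

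The study measured open chromatin by ATAC-seq, in which a transposase cuts and tags accessible DNA, in CD1 mouse embryos. Distal forelimb ectoderm and distal hindlimb ectoderm were each measured in 2 libraries from stage E14.5 (embryonic day), and forebrain in 1 library from stage E13.5. Trypsin freed the ectoderm from the mesoderm beneath it, and collagenase broke up the forebrain, so that effects of tissue, of stage and of dissociation cannot be told apart. No label ties replicates to separate embryos, so their spread may be technical. In such bulk samples, fewer cells of a type with a region open and less opening per cell cannot be told apart.

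Gene deserts are long stretches with no protein-coding gene. Many are known to hold enhancers, DNA elements that bind transcription factors and act on promoters far away, often skipping over nearer genes, and desert enhancers of developmental genes are a well-known case in the limb. The ectoderm of the distal limb at these stages is a stratifying epithelium whose basal layer depends on the transcription factor p63 and on AP-2 factors, and it gives rise to epidermis, hair follicles, sweat glands and nails. The nearest protein-coding genes on both sides are named below as landmarks. Which gene a region acts on, if any, was not measured.

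Promoter windows of long non-coding RNA (lncRNA) genes overlapped 10 of the 1085 regions. Each window held 300 bases, from 250 before to 50 after a start site. No such count is given here for other sets of regions, so the 10 are not read as many or few. The overlaps came from 11 windows of 10 genes. The overlap was of 2 bases at Gm41423 and of more at the others. The start site lay outside the region at Gm41423 and at a second start of Gm35551. The windows are RefSeq sequence of the build GRCm38.p6, and 4 of them are shown on the gene's own strand because they held matches to motifs of ectodermal factors. Capitals mark those matches. The window of Mir205hg, the host gene of the epithelial microRNA miR-205, is chr1:193510161-193510460 on the minus strand, that of Gm34501 is chr15:11729569-11729868 on the minus strand, that of Gm35551 is chr17:84026272-84026571 on the minus strand, and that of Gm41436 is chr16:26251668-26251967 on the plus strand.
Mir205hg: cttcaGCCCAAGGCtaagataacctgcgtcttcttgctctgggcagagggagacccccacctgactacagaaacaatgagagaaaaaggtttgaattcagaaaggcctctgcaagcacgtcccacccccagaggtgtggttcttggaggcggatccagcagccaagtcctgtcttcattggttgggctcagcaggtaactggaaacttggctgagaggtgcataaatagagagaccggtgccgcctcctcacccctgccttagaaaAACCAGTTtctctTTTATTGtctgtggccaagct
Gm34501: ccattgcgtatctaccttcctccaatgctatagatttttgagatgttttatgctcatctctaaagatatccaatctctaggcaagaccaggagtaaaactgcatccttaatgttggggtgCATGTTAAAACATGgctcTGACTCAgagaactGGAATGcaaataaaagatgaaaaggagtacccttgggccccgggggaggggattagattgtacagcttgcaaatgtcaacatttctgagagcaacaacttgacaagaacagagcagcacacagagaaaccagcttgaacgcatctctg
Gm35551: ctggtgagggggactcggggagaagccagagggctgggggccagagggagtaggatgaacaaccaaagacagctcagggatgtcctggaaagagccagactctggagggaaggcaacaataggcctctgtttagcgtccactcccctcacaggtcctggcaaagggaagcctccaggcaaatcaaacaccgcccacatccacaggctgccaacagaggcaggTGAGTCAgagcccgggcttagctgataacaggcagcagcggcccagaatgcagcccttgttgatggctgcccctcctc
Gm41436: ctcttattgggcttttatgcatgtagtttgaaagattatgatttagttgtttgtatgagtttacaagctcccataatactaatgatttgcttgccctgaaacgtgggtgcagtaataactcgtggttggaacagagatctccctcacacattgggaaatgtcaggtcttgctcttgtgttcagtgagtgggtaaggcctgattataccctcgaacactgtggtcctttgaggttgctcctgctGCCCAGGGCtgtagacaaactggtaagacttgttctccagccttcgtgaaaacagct

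In the Mir205hg window, bases 6 to 14 matched the AP-2 motif GCCNNNGGC, bases 267 to 274 the Grainyhead-like motif AACCNGTT and bases 280 to 286 the Hox13 motif TTTATTG, counting from 1 at the 5′ end of the window. In the Gm34501 window, 3 matches stood close together, namely the p63 motif (CATG, any 6 bases, CATG) at bases 121 to 134, the AP-1 motif TGANTCA at bases 139 to 145 and the TEAD motif GGAATG at bases 153 to 158. The Gm35551 window held an AP-1 match at bases 223 to 229, and the Gm41436 window an AP-2 match at bases 244 to 252. Both strands were searched for 12 motifs. None of these matches overlapped another. In the windows not shown, TEAD matched at Gm33650 and at a second start of Gm35551, and the neural bHLH motif CAGATGG matched at Gm33650. Of 32619 promoter windows of the same length in the RefSeq table, 0.714% held the p63 motif, 2.097% the Grainyhead-like motif, 4.52% the Hox13 motif, 5.33% the neural bHLH motif, 7.85% the AP-1 motif, 14.6% the TEAD motif and 16.7% the AP-2 motif. The KLF motif GGGTGTGG, the homeodomain motif TAATTA, the SOX motif ACAATGG, the CTCF motif and the NFI motif (TTGGC, any 5 bases, GCCAA) had no match in the 11 windows. A match describes letters and not binding. The windows ranged from 39.3% to 60% G and C bases with a median of 49%, against a median of 53% over all promoter windows.

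The region over the Gm34501 start, chr15:11729317-11729876, was the middle one of 3 ectoderm-only regions within 25.9 kb, 110.3 kb from Npr3, a clearance receptor for natriuretic peptides. It had a fold enrichment of 6.99 and 8.03 in forelimb ectoderm replicates 1 and 2 and of 4.82 and 7.71 in hindlimb ectoderm replicates 1 and 2. Fold enrichment throughout is the authors' value for a peak's summit in its own list, and it orders peaks within that list and not between lists. The Gm35551 region, chr17:84026056-84026637, lay 158 kb from Zfp36l2, an RNA-binding protein that promotes mRNA decay. Its folds were 6.25, 7.58, 4.99 and 8.40 in the same library order, and a forebrain peak lay 1748 bp from it. The Gm41436 region, chr16:26251124-26252096, lay 105 kb from Cldn1, the claudin of epidermal tight junctions, with folds of 5.45, 3.59, 4.29 and 6.06. Within their own lists the Gm34501 and Gm35551 regions stood at percentile 82.9 and 81.3 of fold or higher in every ectoderm library, whereas the Gm41436 region stood at percentile 43.5 in the list where it was lowest.

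The Mir205hg gene stood at one end of a run of 8 of these regions, a number matched by 1 other run, at the start of chromosome 9. MiR-205 is a microRNA of stratified epithelia that is abundant in skin. Its mature arms are shown because 5 ectoderm-only regions lay within 20 kb of the hairpin and the nearest was 0.749 kb away. They come from the RefSeq table, the 5p arm at chr1:193507503-193507524 and the 3p arm at chr1:193507467-193507488, both on the minus strand, and capitals mark the seed.
mmu-miR-205-5p: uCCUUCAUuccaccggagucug
mmu-miR-205-3p: gAUUUCAGuggagugaagcuca

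Ectoderm-only regions numbered 8 over the 60.7 kb from chr1:193508279 to 193568987, from inside Mir205hg to well upstream of it, between Camk1g, a calmodulin-dependent kinase, and Plxna2, a semaphorin receptor. Among regions within 100 kb of the Mir205hg start site, those 8 stood beside 4 forebrain-only regions and 1 region called in all 5 libraries. The window also held 8 regions with other patterns of calls. The region over the start site, chr1:193510041-193510443, had folds of 7.20 and 6.27 in forelimb ectoderm and 4.61 and 7.22 in hindlimb ectoderm. The region 58.55 kb upstream, chr1:193568533-193568987, had folds of 8.64 and 6.62 in forelimb ectoderm and 3.02 and 7.78 in hindlimb ectoderm. The region 40.7 kb upstream, chr1:193550485-193551269, had folds of 4.07 and 6.99 in forelimb ectoderm and 6.60 and 10.4 in hindlimb ectoderm. The rule required a call in both limbs for each of the 8. Since folds of separate lists do not share a scale, no order between forelimb and hindlimb was read from them.

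The local background, the read rate that the peak caller expected around a summit divided by the library's own rate, was high over this run. Solved from the deposited fold and p-value and taken as the median of the 4 ectoderm libraries, it was 4.67 times the library rate at the start site and 1.80 times at the region 40.7 kb upstream. Across all 1085 regions the median was 1.27 times. Among the other lncRNA start regions described above, it was 2.57 times at Gm35551, 1.41 times at Gm34501 and 1.18 times at Gm41436.

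**Figure D1:**
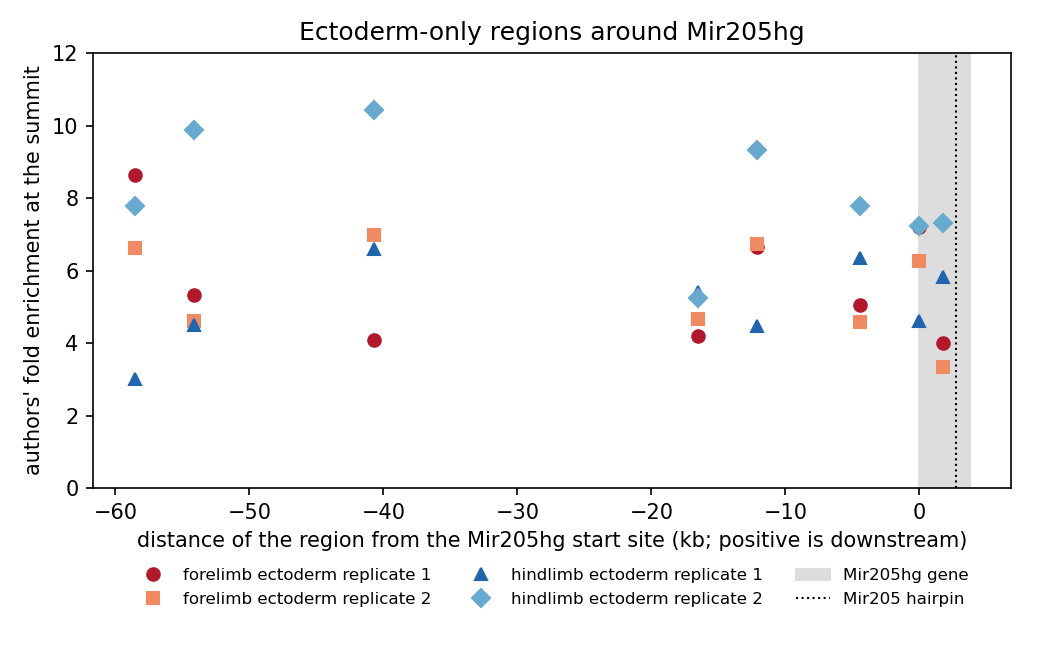
The authors' fold enrichment (linear axis) of the 8 ectoderm-only regions around Mir205hg in each of the 4 ectoderm libraries, against distance from the start site in kb, where positive is downstream. The grey band is the Mir205hg gene and the dotted line the miR-205 hairpin, and 6 of the 8 regions lie upstream of the region over the start site.

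As a check of the tissues, a peak within 1 kb of either end of a gene was counted in each library for lists of marker genes. Of 29 genes of the basal epidermis, 25, 25, 19 and 25 had one in forelimb replicates 1 and 2 and hindlimb replicates 1 and 2, against 19 in forebrain. Of 20 genes of differentiated epidermis, 13, 10, 8 and 13 had one in the ectoderm libraries, against 8 in forebrain. In hindlimb replicate 1 the count of either epidermal list thus equalled that of forebrain. Of 28 skin appendage genes, 22, 18, 16 and 22 had one in the ectoderm libraries, against 25 in forebrain, and of 21 limb ridge and patterning genes 17, 16, 14 and 20, against 19, so these lists did not set ectoderm apart. Of 20 forebrain progenitor genes, 9, 7, 9 and 10 had one in the ectoderm libraries in that order, against 19 in forebrain, and of 20 neuron genes 10, 9, 8 and 8, against 19. For other cells that an ectoderm preparation could hold, 14, 9, 8 and 11 of 21 limb mesenchyme genes had one, against 18 in forebrain. The counts were 8, 8, 4 and 5 of 18 endothelium and blood genes, against 11. They were 6, 8, 5 and 6 of 11 melanocyte and Schwann cell genes, against 9. Of all 21631 protein-coding genes, 48.5% had such a peak in all 4 ectoderm libraries at once and 66.96% had one in forebrain. The share of all genes in each single ectoderm library is not given here. The counts are therefore not read as presence of such cells. The part of such cells in the ectoderm-only regions was not tested. The lists held between 51392 and 78075 peaks in ectoderm and 120280 in forebrain. Hindlimb ectoderm replicate 1 had the shortest list, and it bears on the number of regions most, since 1080 of the 1366 desert regions that missed a single ectoderm library and had no forebrain peak missed that one. Without it the rule would give 2167 regions.

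Gene deserts held 20.2% of all ectoderm-only regions (95% exact binomial interval 19.1 to 21.3, counting error only, 1085 of 5379). They held 23.6% of forebrain-only regions (23.3 to 23.9, 18151 of 76769), 4.39% of regions called in all 5 libraries (4.07 to 4.72, 683 of 15568) and 21.1% of all regions (20.9 to 21.2). The share was thus lowest for regions called in all 5 libraries, and the interval for ectoderm-only regions lay below that for forebrain-only ones. Forebrain-only status needed a peak in 1 list and ectoderm-only status needed 4, so the counts of these classes differ in what they demand, and a ratio of them has no meaning by itself and is given to set one place beside another. Of the 1085 regions, the median distance from the nearest protein-coding gene was 238 kb, with an interquartile range from 156 to 426 kb. Beyond 500 kb lay 19.4% of them (17.1 to 21.9), against 24.6% of forebrain-only desert regions (24.0 to 25.2) and 13.03% of desert regions called in all 5 libraries (10.6 to 15.8).

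**Figure D2:**
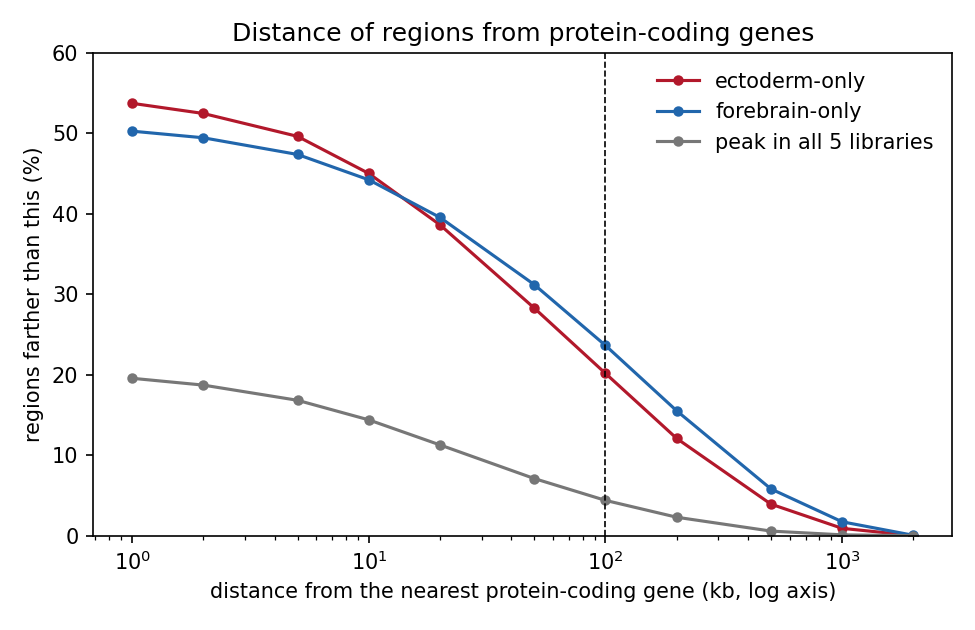
Share of ectoderm-only regions, forebrain-only regions and regions with a peak in all 5 libraries that lay farther from the nearest protein-coding gene than the distance on the log axis, in kb. The dashed line marks 100 kb, where the shares are 20.2%, 23.6% and 4.39%.

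The region farthest from any protein-coding gene, chr18:27928002-27928722, lay 2174 kb from Celf4, an RNA-binding protein of neurons, and farther still from Pik3c3, the class III phosphatidylinositol 3-kinase. Its folds were 8.13 and 11.0 in forelimb ectoderm and 5.84 and 7.29 in hindlimb ectoderm, and its local background was 1.29 times the library rate. The next 3 lay together on chromosome 1 between Cntnap5b, a contactin-associated protein, and the cadherin gene Cdh20, from 1901 to 1983 kb from the nearer gene. Of these, chr1:102825050-102825399 had folds of 11.4 and 9.04 in forelimb ectoderm and 5.68 and 15.1 in hindlimb ectoderm. The threshold of 100 kb cut through a continuous range. The closest region inside it, chr4:8041137-8041547 near Car8, lay 100.2 kb from a gene and had folds of 6.89, 10.2, 5.61 and 12.4, and the closest outside it, chr5:99352329-99353050 near Rasgef1b, lay 99.8 kb away and had folds of 4.53, 7.49, 3.99 and 8.17.

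A call in all 4 ectoderm lists favours strong peaks, so the rank of these regions within a list is a description. Their median percentile of fold was 78.1 and 81.9 in the 2 forelimb lists and 75.7 and 85.7 in the 2 hindlimb lists. Desert regions called in all 5 libraries had 81.6, 82.7, 73.5 and 82.9 in that order, and ectoderm-only regions within 100 kb of a gene 75.7, 77.8, 71.0 and 82.7. Median folds were 5.77 and 6.13 in forelimb ectoderm replicates 1 and 2 and 4.10 and 7.86 in hindlimb ectoderm replicates 1 and 2. Ectoderm-only regions within 100 kb of a gene had 5.48, 5.56, 3.86 and 7.10, and those inside genes 5.36, 5.43, 3.86 and 7.17, so the median was highest in deserts in 4 of 4 libraries. The corresponding medians of −log10 q, the authors' measure of significance, were 12.4, 16.0, 6.63 and 28.4 in deserts, 12.5, 14.2, 6.66 and 27.5 within 100 kb and 12.5, 14.52, 7.04 and 28.9 inside genes, and showed no such order. The local background ran the other way from the fold. It was above 2 times the library rate at 4.88% of desert regions (3.68 to 6.34), against 16.7% within 100 kb (15.1 to 18.5) and 21.0% inside genes (19.4 to 22.7), and its part in the higher folds was not tested.

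**Figure D3:**
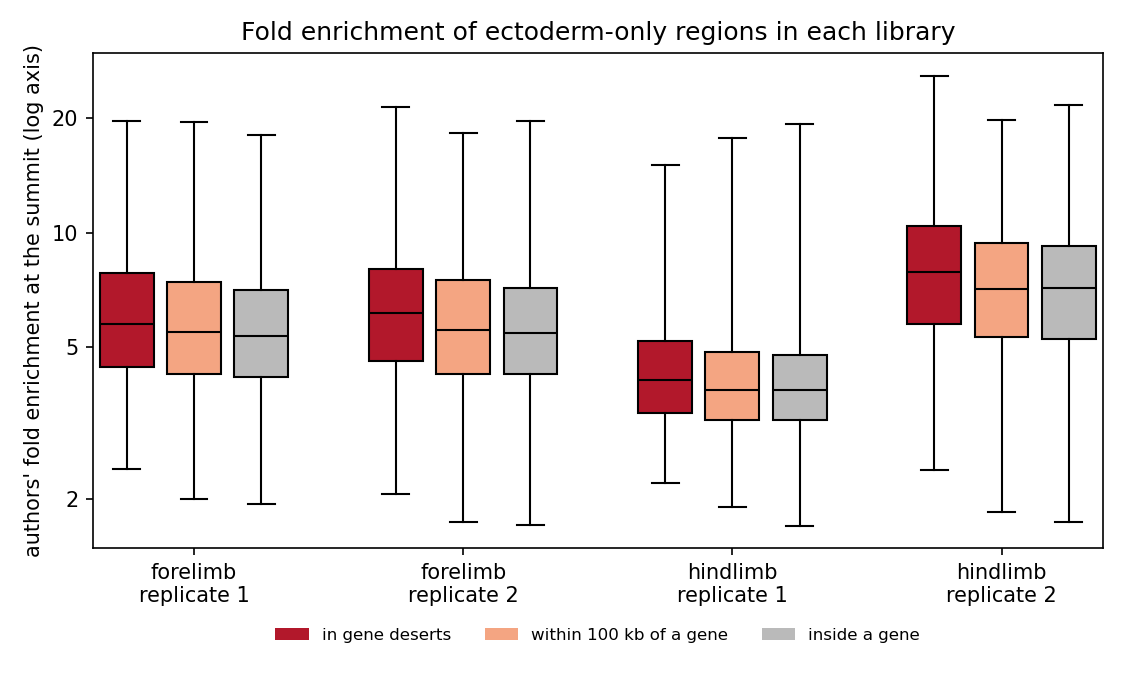
The authors' fold enrichment at the summit (log axis) of ectoderm-only regions in gene deserts, within 100 kb of a gene and inside genes in each ectoderm library, with boxes from the lower to the upper quartile, a line at the median and whiskers to the lowest and highest value. In each library the median is highest in gene deserts, from 4.10 in hindlimb replicate 1 to 7.86 in hindlimb replicate 2.

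Individual regions varied widely around these medians. Folds ran from 2.40 to 19.6 and from 2.06 to 21.4 in the forelimb libraries, and from 2.20 to 15.03 and from 2.37 to 25.8 in the hindlimb libraries. Of the 1085, 257 were at or above percentile 80 in every ectoderm list, which is 23.7%, and 516 had their lowest percentile in hindlimb ectoderm replicate 1. The regions were 516 bp wide at the median, with an interquartile range from 421 to 629 bp. The nearest forebrain peak was 8592 bp away at the median, and 96 regions (8.85%, 7.23 to 10.7) had one within 1 kb. That share was 12.1% (10.7 to 13.7) for ectoderm-only regions within 100 kb of a gene and 13.3% (11.998 to 14.8) for those inside genes.

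Ranked by the lowest percentile over the 4 ectoderm lists, the strongest region was chr7:93323659-93324188, between Gm15501 and Tenm4, a teneurin of cell-cell contacts. Its folds were 15.9 and 20.6 in forelimb ectoderm and 15.03 and 22.8 in hindlimb ectoderm. Gm15501 was 139.7 kb and Tenm4 2847 kb away from it, and its local background was 2.25 times the library rate. Tenm4 was 1 of 7 flanking genes with an end called throughout ectoderm and not in forebrain. Those 7 were 0.694% of the 1008 flanking genes, near the 0.536% of all protein-coding genes. The region ranked after chr7:93323659-93324188 was chr1:110706014-110706556. It lay 182 kb from Cdh19 and 561 kb from Cdh7, both cadherins. Its folds were 19.2 and 20.7 in forelimb ectoderm and 11.2 and 19.4 in hindlimb ectoderm. Next came 2 regions of the desert between Slitrk5, a neuronal transmembrane protein, and Gpc5, a glypican of the cell surface. Of these, chr14:113765195-113765825 was 1327 kb from Gpc5 and had folds of 19.6 and 20.2 in forelimb ectoderm and 10.9 and 22.5 in hindlimb ectoderm. In the desert between the protocadherins Pcdh20 and Pcdh9, chr14:89117222-89117662 had folds of 14.4 and 21.4 in forelimb ectoderm and 10.6 and 25.8 in hindlimb ectoderm. Another of the strongest, chr1:45135233-45135872, lay 176 kb from Col3a1, a fibrillar collagen of connective tissue, with folds of 15.2 and 14.0 in forelimb ectoderm and 10.4 and 15.3 in hindlimb ectoderm. Every one of the strongest 12 stood at percentile 96.4 or higher in each of the 4 ectoderm lists.

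These regions were spread thinly over the deserts. A region of this kind occurred in 554 of the 1395 deserts that held any region, 302 of those had a single one, and 65 had 4 or more. The density was 1.45 per Mb of desert, highest on chromosomes 17 and 13 at 2.16 and 2.15 per Mb, and lowest on the X chromosome at 0.258 per Mb and on chromosome 7 at 0.909 per Mb. Forebrain-only regions were likewise sparsest on the X chromosome, at 5.51 per Mb against 24.6 per Mb over all. Another ectoderm-only desert region lay within 100 kb of 378 of the 1085 regions (34.8%, 32.0 to 37.8). For their own kind, the share was 35.5% (33.3 to 37.7) of ectoderm-only regions within 100 kb of a gene and 39.7% (37.7 to 41.7) of those inside genes. It was 97.6% of the 18151 forebrain-only desert regions and 26.5% of the 683 desert regions called in all 5 libraries. These sets differ in number of regions, and the part of number in the shares was not tested. With gaps of at most 50 kb, 850 of the 1085 stood alone, 94 pairs formed, and 12 runs of 3 or more held 47 of the 1085.

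The desert between Zeb2, a zinc-finger repressor that acts in neural crest and in epithelial to mesenchymal transition, and Acvr2a, an activin receptor, held the most, with 14 over 3697 kb beside 109 forebrain-only regions. The strongest of the 14, chr2:45783789-45784411, lay 667 kb from Zeb2 and had folds of 9.35 and 6.84 in forelimb ectoderm and 5.19 and 11.3 in hindlimb ectoderm. The desert between Slc10a2, a bile acid transporter, and Efnb2, an ephrin ligand, held 10 beside 94 over 3512 kb. Its strongest, chr8:8402930-8403510, lay 214 kb from Efnb2 with folds of 6.93, 6.73, 6.07 and 8.81. The Pcdh20 to Pcdh9 desert held 9 beside 88 over 4542 kb, and the Pabpc4l to Pcdh18 desert 8 beside 56 over 3295 kb. The Camk1g to Plxna2 desert, that of Mir205hg, also held 9, beside 50, over a shorter 1249 kb. These counts are not scaled to desert length. Of the 65 deserts with 4 or more, 2 held more ectoderm-only than forebrain-only regions, the start of chromosome 9 and the space between Tmx1 and Frmd6, with 4 beside 2. Without hindlimb ectoderm replicate 1 the Zeb2 desert held 19 and the Efnb2 desert 15.

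Of the 1395 deserts, 25 held more ectoderm-only than forebrain-only regions. The deserts named next had 5 or 6 ectoderm-only regions, were chosen after their values were seen, and are examples and not a ranking. Between Il7, a cytokine made by epithelial and stromal cells, and Stmn2, a microtubule regulator of neurons, 6 ectoderm-only regions stood beside 9 forebrain-only ones, and without hindlimb ectoderm replicate 1 there were 10 beside 9. Between Tfap2b, an AP-2 transcription factor, and Pkhd1, a protein of kidney cilia, 6 stood beside 13, and without that library 9 beside 13. Between Mmut, a mitochondrial mutase, and Ptchd4, a patched-domain protein, 5 stood beside 10, and without that library 8 beside 11. The strongest region of the Tfap2b desert, chr1:19458899-19459731, lay 220.5 kb from Tfap2b with folds of 7.92 and 6.22 in forelimb ectoderm and 7.04 and 12.9 in hindlimb ectoderm. Between Gja1, the gap junction protein connexin 43, and Hsf2, a heat shock factor, 6 stood beside 26, and without that library 11 beside 26. Over all deserts, ectoderm-only regions were 5.64% (5.32 to 5.98) of ectoderm-only and forebrain-only regions together, against 8.15% (7.80 to 8.51) within 100 kb of genes and 6.05% (5.82 to 6.29) inside genes.

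Between the start of chromosome 9 and its first protein-coding gene, Alkbh8, 8 ectoderm-only regions lay within 34.2 kb, from chr9:3002441 to 3036681, with no forebrain-only region and 6 regions called in all 5 libraries. The local background there was from 3.68 to 7.44 times the library rate in every one of the 8, against a median of 1.27 over all desert regions. Their folds lay between 2.40 and 7.10. Whether they lie in repeated or duplicated sequence was not tested, so neither the 8 calls nor the lack of forebrain-only regions there is read as a difference between tissues. Leaving out the 13 regions beyond the outermost protein-coding gene of a chromosome gave 1072.

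**Figure D4:**
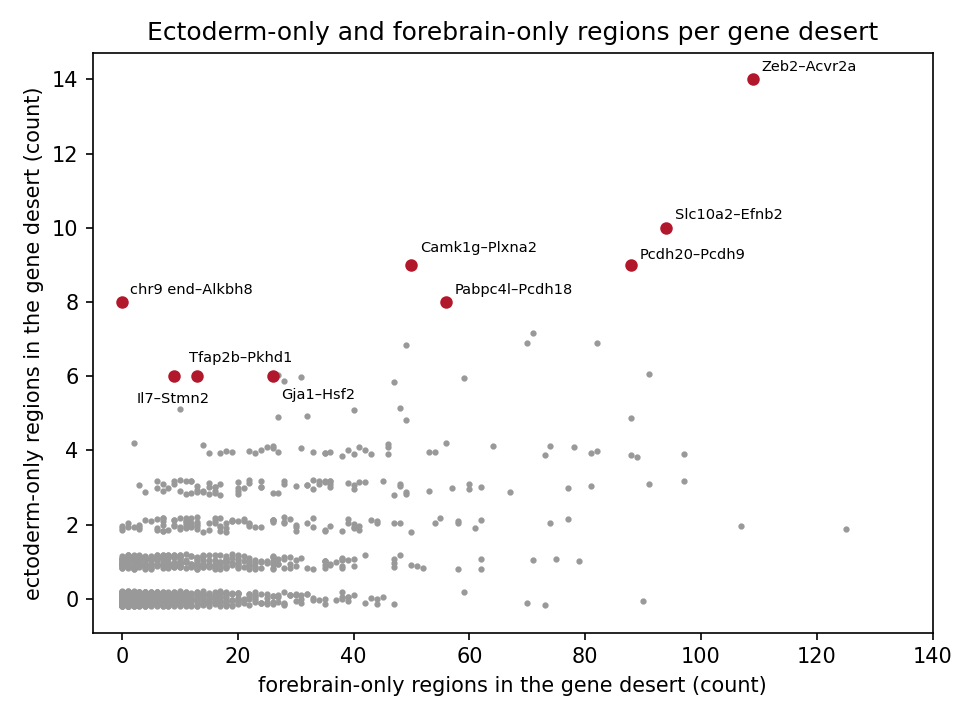
Ectoderm-only regions against forebrain-only regions in each of the 1395 gene deserts that held any region (counts, grey points shifted by up to 0.2 up or down so that they can be told apart). Points in red carry the names of the flanking genes, with Zeb2 to Acvr2a at 14 and 109 and the start of chromosome 9 at 8 and 0.

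The nearest protein-coding genes on both sides of each region were read against 12 lists of 322 distinct genes. Any listed gene flanked 288 of the 1085 regions (26.5%, 23.9 to 29.3), against 26.6% (26.0 to 27.3) of forebrain-only desert regions and 25.7% (25.3 to 26.1) of all desert regions. These shares lay within the interval of the first. For single lists, the share of ectoderm-only regions stood above that of forebrain-only regions in some and below it in others. Up to 14 regions shared 1 gene, so intervals that count each region as separate are too narrow, and no list was tested.

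Genes of the basal epidermis flanked 16 ectoderm-only regions (1.47%, 0.845 to 2.38), against 0.501% (0.404 to 0.615) of forebrain-only desert regions and 0.570% (0.505 to 0.641) of all. The 16 came from 6 of the 29 genes. Tfap2b flanked 6, Klf5, a Krüppel-like factor of proliferating epithelium, flanked 4, Dsc3, a desmosomal cadherin of the basal layer, flanked 3, and Tfap2a, Tfap2c and Trp63, which encodes p63, flanked 1 each. Without hindlimb ectoderm replicate 1 the share was 1.15% (0.748 to 1.70), against 0.498% of forebrain-only regions. The Trp63 region, chr16:25580144-25580622, lay 103 kb from Trp63 on the side of Tprg, with folds of 8.39 and 5.78 in forelimb ectoderm and 4.93 and 8.67 in hindlimb ectoderm, and Trp63 flanked 1 forebrain-only region. The strongest Klf5 region, chr14:99631090-99631617, lay 318 kb from Klf5 and 235 kb from Klf12 with folds of 14.52 and 11.1 in forelimb ectoderm and 5.69 and 15.3 in hindlimb ectoderm. The Tfap2a region, chr13:40518272-40518614, lay 195 kb from Tfap2a with folds of 6.52 and 7.82 in forelimb ectoderm and 4.89 and 7.62 in hindlimb ectoderm. Tfap2a was another of the 7 flanking genes with an end called throughout ectoderm and not in forebrain. Those 7 were 0.694% of 1008, near the 0.536% of all protein-coding genes. Of 20 genes of differentiated epidermis, Klf4 alone flanked any, with 2.

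Genes of skin appendages flanked 22 ectoderm-only regions (2.03%, 1.27 to 3.05), against 1.21% (1.06 to 1.38) of forebrain-only desert regions and 1.42% (1.32 to 1.53) of all, and the share over all lies within the interval for ectoderm-only regions. Without hindlimb ectoderm replicate 1 the share was 1.71% (1.205 to 2.35), an interval that also takes in the 1.21% of forebrain-only regions. Gata3, a transcription factor of the hair follicle, and Sox9, a factor of hair stem cells and cartilage, flanked 4 each, beside 53 and 37 forebrain-only regions. Barx2, a homeobox factor of hair and muscle, flanked 3 beside 3 forebrain-only ones, and Bmp2, a bone morphogenetic protein, flanked 3 beside 38. The strongest region next to an appendage gene was chr3:130924766-130925402, 185 kb from Lef1, a nuclear effector of Wnt signals in hair buds. It had folds of 8.99 and 9.31 in forelimb ectoderm and 8.57 and 13.9 in hindlimb ectoderm. A forebrain peak lay 764 bp from it, and its local background was 2.28 times the library rate. Next came chr2:134062429-134062878, 499.8 kb from Bmp2, with folds of 10.7 and 8.16 in forelimb ectoderm and 7.41 and 11.0 in hindlimb ectoderm. Genes of the limb ridge and limb patterning flanked 12 (1.11%, 0.573 to 1.92), against 0.898% of forebrain-only regions. Bmp2 accounted for 3 of those, and Bmp4, the dorsoventral factor En1 and the fibroblast growth factor receptor Fgfr2 for 2 each.

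Developmental transcription factor genes flanked 128 (11.8%, 9.94 to 13.9), against 9.42% (8.99 to 9.85) of forebrain-only regions, from 50 of 72 genes. Zeb2 led with 14, then Dach1 and Tfap2b with 6 each, and Klf12, Myc and Sox4 with 5 each. Without hindlimb ectoderm replicate 1 the share was 10.1% (8.87 to 11.5), against 9.44% of forebrain-only regions. Secreted signals and their receptors flanked 64 (5.90%, 4.57 to 7.47), against 4.57% of forebrain-only regions, led by the ephrin Efna5 and the axon guidance ligand Slit2 with 7 each. Cell adhesion genes stood on the other side, with 65 (5.99%, 4.65 to 7.57), against 9.61% (9.19 to 10.1) of forebrain-only regions. Without that library the share was 7.89% (6.79 to 9.11), against 9.54%.

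Lists of other cell types were mixed. Forebrain progenitor genes flanked 10 (0.922%, 0.443 to 1.69), against 1.54% of forebrain-only regions, and limb mesenchyme genes 9 (0.829%), against 0.667%. Endothelium and blood genes flanked 3 (0.276%), against 0.645%, and melanocyte and Schwann cell genes 3 (0.276%), against 0.435%. Neuron genes flanked 16 (1.47%, 0.845 to 2.38), against 0.628% of forebrain-only regions, the same share as for the basal epidermis. Of these, 6 lay next to Stmn2 and 4 next to Bcl11b, a zinc-finger factor of neurons that is also made in skin. With hindlimb ectoderm replicate 1 left out, the neuron share was 1.25% (0.823 to 1.81), against 0.638% of forebrain-only regions.

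**Figure D5:**
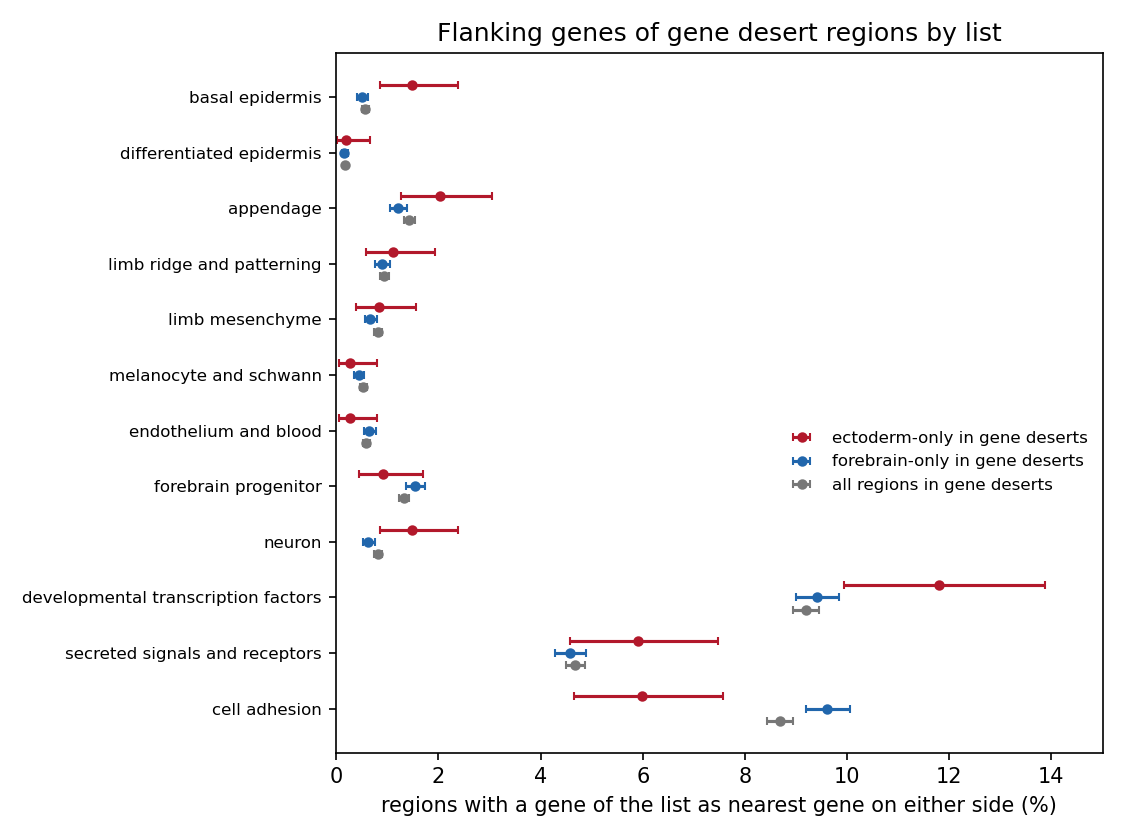
Share of regions with a gene of each list as the nearest protein-coding gene on either side, in percent, for ectoderm-only, forebrain-only and all regions of gene deserts, with 95% exact binomial intervals. Basal epidermis (1.47% against 0.501%) and neuron (1.47% against 0.628%) stand higher for ectoderm-only than for forebrain-only regions, and cell adhesion (5.99% against 9.61%) lower.

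The protein-coding genes next to these regions were mostly accessible in both tissues. Of the 1008 flanking genes, 61.6% (58.5 to 64.6) had a peak within 1 kb of an end in all 4 ectoderm libraries and 80.6% (78.0 to 83.0) had one in forebrain. Genes beside forebrain-only desert regions were close to this, at 58.3% (56.2 to 60.4) and 79.3% (77.5 to 81.0). Genes beside deserts that held regions but no ectoderm-only one had 53.4% (50.7 to 56.1) and 75.2% (72.9 to 77.5), and all protein-coding genes 48.5% and 66.96%. An end with a peak in every ectoderm library and none in forebrain was found at 7 of the 1008 (0.694%, 0.280 to 1.43), near the 0.630% of genes beside any desert region and the 0.536% of all protein-coding genes. Those 7 were Tenm4, Col3a1, Rbbp8, Chl1, Pof1b, Spag17 and Tfap2a, named here as the whole of that count.

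Deserts without coding genes still held lncRNA genes. Of the 1085 regions, 162 (14.9%, 12.9 to 17.2) lay inside 1 of 147 lncRNA genes, close to the 14.7% (14.1 to 15.2) of forebrain-only desert regions and under the 21.96% (18.9 to 25.3) of desert regions called in all 5 libraries. The lncRNA 2610307P16Rik, next to Sox4, a transcription factor of many embryonic progenitors, held 5, the most of any. The strongest of these, chr13:28658675-28659203, lay 290.0 kb from Sox4 with folds of 8.82 and 9.46 in forelimb ectoderm and 7.16 and 17.6 in hindlimb ectoderm. Gm13481, in the Zeb2 desert, held 3, and Pvt1, beside the growth regulator Myc, held 2. Other lncRNA start sites among the regions included Gm30154 between Irx2 and Irx4, homeobox factors of patterning, and Gm31912, 172 kb from Tcf7l2, a nuclear effector of Wnt signals.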

How the data were processed

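ATAC-seq peaks come as 1 list for each library, deposited by the authors in narrowPeak form, with no pooled calls. Per the submitters' processing notes, MACS2 2.1.1.20160309 and Bowtie2 2.3.5 were among the tools, as were cutadapt 1.16, bedtools and Picard, and the build was mm10. Any read shift to the transposase cut was not given in the sources used here. For each peak the authors give a score, left aside here, the summit's fold enrichment (a ratio), −log10 p and −log10 q. The lowest deposited −log10 q was 1.30 to 1.31 in every list, the value of a q threshold of 0.05. The lists hold no read totals, so sequencing depth is unknown.

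Regions were built and placed with Python 3.11.15, pandas 2.3.3, numpy 2.4.6 and scipy 1.17.1 against 21631 protein-coding genes of RefSeq GRCm38.p6, the mm10 build. Summit pileup and local background were solved from the deposited fold and p as the peak caller's Poisson model defines them, and were found for 100% of peaks in the ectoderm lists and 99.9992% in the forebrain list. The steps that joined and classed regions, measured distances and solved pileup and background were tested on simulated data, and the share code was not. Shares carry exact Clopper-Pearson 95% intervals. No test across samples was made, since forebrain has 1 library and the rule used the same calls. Regions without a peak were not called, which does not show closed chromatin. Named regions were the 12 strongest by lowest percentile over the ectoderm lists, those of the 6 deserts with most, up to 12 beside epidermis, appendage or ridge genes, the 5 farthest from genes and those next to the 100 kb threshold. Named genes were their flanks and up to 4 per list, with more where genes tied in count. Other regions and genes were named at lncRNA genes, as examples of deserts, or as the whole of a count. The regions and gene lists were chosen with earlier results of these data known. Settings varied were the peak threshold, list length, overlap, forebrain margin, region position, distance, gene set, local background, chromosomes and each ectoderm library left out.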

Additional observations from a re-analysis of the deposited data

How the results depend on the processing

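The number of regions rested on the calls in hindlimb ectoderm replicate 1. Leaving out 1 ectoderm library at a time gave 1132 to 2167 regions, the highest without that library. Requiring −log10 q of 5 or more gave 706 regions in all 5 lists and 644 with that demand on ectoderm only. A distance above 200 kb gave 650, and counting all annotated genes, lncRNAs included, gave 280. The desert share was 28.3% above 50 kb, 12.1% above 200 kb and 5.21% with all annotated genes, and 19.9% to 20.3% with a library left out. The share with another such region within 100 kb was 23.9% and 21.9% at the 2 stricter thresholds, 31.0% without forebrain peaks within 1 kb, 27.5% with all annotated genes, and 34.9% to 49.6% with a library left out. The share flanked by a listed gene was 22.9% above 50 kb, 30.2% above 200 kb, 29.6% with all annotated genes, and 26.5% to 26.9% with a library left out. The share with local background above 2 times the library rate was 6.66% and 6.83% at the stricter thresholds, 3.23% above 200 kb, 1.79% with all annotated genes, and 3.46% to 4.90% with a library left out. The cause of these moves was not tested, apart from fewer or more regions passing by construction. The other alternatives moved these 5 results by less than their intervals or 1.5 times. Leaving out regions beyond the outermost gene, and the list and desert counts without hindlimb ectoderm replicate 1, were chosen after seeing the data. The share of regions with an AP-1 motif was not run, since no genome sequence was used here. No paired analysis was possible because no result comes from a test and forebrain has 1 library.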
